A study of Caenorhabditis elegans with 12 samples.

Results

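Total mRNA of Caenorhabditis elegans larvae that carried ced-3(n717) was compared with that of larvae that carried pmk-1(km25), gene by gene. The comparison used the 2 ced-3 and the 2 pmk-1 libraries of total mRNA, out of 12 libraries in the series, and each library was assigned to its genotype by its label and by the matching column of the deposited count table. The other libraries were 2 of wild type (WT) mRNA, which entered the fit but not the contrast, and 6 of ribosome-protected fragments (RPF, the pieces of mRNA covered by ribosomes) from the same worm samples. Each group was a pool of whole larvae: ced-3(n717) mutants, pmk-1(km25) mutants, and WT N2 worms with neither allele. In all of them eggs were left to hatch without food in M9 buffer over 24 h, and the larvae were then kept on OP50 bacteria for 18 h at 20 °C. By then over 90% of the WT larvae were at the third larval stage (L3), and no such share is given for either mutant. Each strain is a single allele with no rescue line in the data, so a difference between strains cannot be told apart from other differences in their genomes. Both mutants differ from WT in another gene, and neither is the control of the other, so a gene higher in ced-3 may be above WT in ced-3 worms, below WT in pmk-1 worms, or both; the WT levels are given beside the mutant ones for that reason.

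CED-3 is the caspase that carries out most programmed cell deaths in the worm, downstream of the activator CED-4 and the inhibitor CED-9. PMK-1 is a p38 mitogen-activated protein kinase, switched on by the kinases NSY-1 and SEK-1, and is best known for keeping antibacterial genes expressed in the intestine. Both alleles are loss-of-function alleles. The larval cuticle is rebuilt at every moult, and most genes for collagens, for moulting and for the precuticle are switched on for a short window in each larval stage.

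The libraries held 15471380 to 17150137 counts, where a gene with 3 counts stood at 0.176 to 0.202 CPM (counts scaled to a common library size). The mutant replicates lay farther apart than the WT ones. With a prior count of 2, the CPM of the 2 replicates differed more than 2-fold for 1135 genes in ced-3 and for 1128 in pmk-1, against 371 in WT. Of the 4 pairings of a ced-3 with a pmk-1 library, the second ced-3 with the first pmk-1 library had the most genes more than 2-fold apart, 2756, and the first ced-3 with the second pmk-1 library had the fewest, 1739. Along the first principal component, which held 61.6% of the variance, the second ced-3 library scored 81.8 and the first 47.9, the second pmk-1 library -31.6 and the first -60.1, and the WT libraries -12.98 and -24.99. Per the series' design text the 2 replicates of a group were independent biological ones; separate cultures are not mentioned, so the p-values cover only the spread between these samples. In whole worms, fewer cells of a type and less RNA per cell cannot be told apart.

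Set against pmk-1 worms, ced-3 worms had higher levels of many cuticle and defence genes and lower levels of fatty acid synthesis genes. Of 13536 genes tested, 909 were higher in ced-3 worms and 338 were lower by edgeR's quasi-likelihood test with a Benjamini-Hochberg adjusted p under 0.05. That is 6.72% of the tested genes higher and 2.5% lower, or 9.21% in either direction, and these shares are the background for every count below. The higher genes had a median log2 fold of 2.60 and the lower genes one of -0.91, while the median over all tested genes was -0.00. Of the higher genes, 386 were at least 8-fold higher, against 13 of the lower genes that were at least 8-fold lower. The higher genes were of low to middling abundance, with a median mean level of 11.21 CPM, and the lower ones had 56.02 CPM. Among the 147 most abundant genes, 0 were higher and 7 were lower. The 2 ced-3 libraries lay both above or both below the 2 pmk-1 libraries for 59.2% of all tested genes, above for 30.4% and below for 28.8%, and this held for every gene called. In the RPF libraries of the same worms, both ced-3 libraries lay above both pmk-1 libraries for 886 of the 909 higher genes (97.5%, against 30.7% of all tested genes), and below them for 332 of the 338 lower genes (98.2%, against 30% of all tested genes).

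**Figure D1:**
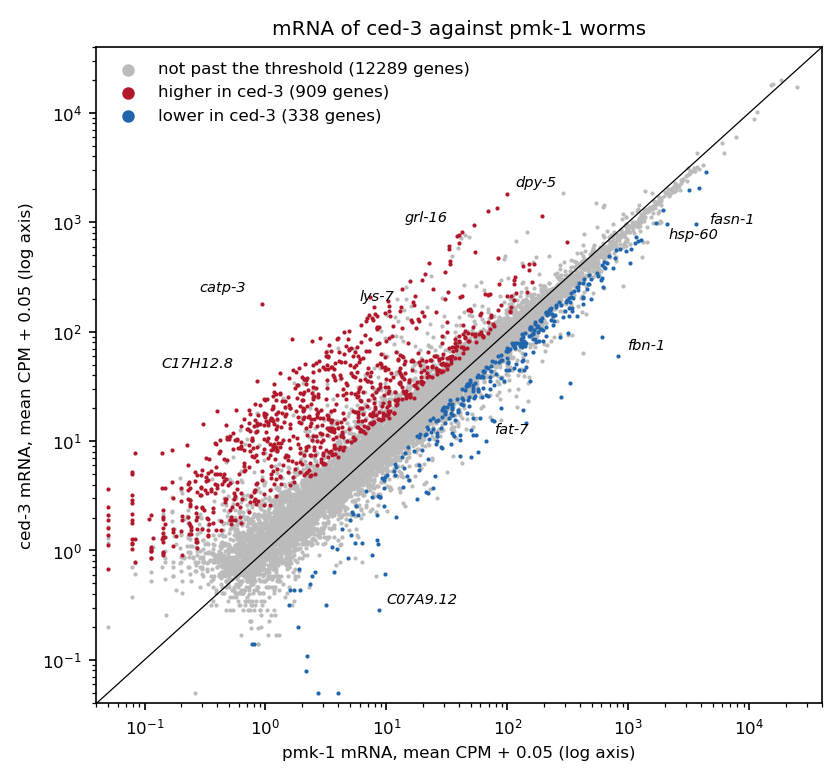
Mean CPM plus 0.05 of each tested gene in the 2 ced-3 libraries (vertical, log axis) against the 2 pmk-1 libraries (horizontal, log axis), with red for genes higher in ced-3, blue for genes lower and grey for the rest. The 909 red points spread far above the diagonal at low and middling levels, and the 338 blue points hug its lower side up to the highest levels.

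These counts rest on a fit that assumes a common spread for the 3 genotypes, which the replicates did not show. The log2 difference between replicates had an SD of 0.375 for WT, whereas the ced-3 value was 0.550 and the pmk-1 value 0.595. The closer WT pair lowers the common spread, although WT is not part of the contrast. The p-values and standard errors may therefore be too small for the 2 mutants. Without the first WT library 3 genes passed, without the second WT library 3 passed, and with the 4 mutant libraries alone 0 passed by the same test, where 3129 genes had an unadjusted p under 0.05 and the smallest adjusted p was 0.0528. Without the first pmk-1 library 64 passed, of which 51 were among the 1247, and without the second ced-3 library 377 passed. With those 2 libraries left out together, a choice made after the data were seen, 1073 genes were higher and 399 lower. DESeq2 on all 6 libraries called 2079 genes. No gene called here changed its direction in any of these fits. The ced-3 and pmk-1 libraries did not overlap for any gene called, so leaving out a library could hardly reverse a direction. The unchanged signs are therefore no further check of the calls.

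The genes mutated in the 2 strains were read first. The ced-3 gene (chromosome IV) had 5.43 and 6.42 CPM in ced-3 worms, 2.57 and 2.296 CPM in pmk-1 worms, and 5.02 and 2.29 CPM in WT worms. The pmk-1 gene (chromosome IV) had 37.9 and 41.0 CPM in ced-3 worms, 35.5 and 35.3 CPM in pmk-1 worms, and 37.1 and 35.5 CPM in WT worms. Neither difference passed the test (log2 fold 1.28 ± 0.39 SE, adjusted p = 0.0934, and 0.16 ± 0.11, adjusted p = 0.374). Counts over a whole gene do not show a point mutation or separate the part that a deletion removes, so they do not check these labels. In RPF, the pmk-1 gene had 42.6 and 48.5 CPM in ced-3 worms against 25.04 and 25.4 CPM in pmk-1 worms, with no overlap. Levels of the genes that depend on PMK-1, given below, were far lower in the libraries labelled pmk-1.

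Of the kinases and regulators of the p38 and related MAP kinase pathways, pmk-1 itself included, 21 were tested, 0 passed in either direction, and their median log2 fold was 0.16. The upstream kinase gene nsy-1 had 134 and 142 CPM in ced-3 worms and 114 and 124 CPM in pmk-1 worms. The kinase gene sek-1 had 51.4 and 49.2 CPM in ced-3 worms and 61.3 and 66.9 CPM in pmk-1 worms (log2 fold -0.35 ± 0.11, adjusted p = 0.0958). The phosphatase gene vhp-1, whose product removes phosphate from MAP kinases, had 88.3 and 96.8 CPM in ced-3 worms and 54.04 and 35.4 CPM in pmk-1 worms (log2 fold 1.05 ± 0.28, adjusted p = 0.0739), and it was the member nearest the threshold. By DESeq2, 1 member of this list was higher.

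Of the cell death and engulfment genes, 27 of 33 were tested, 2 were higher, 1 was lower, and the median was -0.09. The higher ones were nuc-1, which encodes the DNase II that digests DNA of engulfed cells, and ces-1, which encodes a Snail-family repressor of specific neuronal deaths. The nuc-1 level was 75.6 and 68.9 CPM in ced-3 worms and 39.9 and 42.3 CPM in pmk-1 worms (log2 fold 0.81 ± 0.18, adjusted p = 0.0456). In RPF the nuc-1 libraries overlapped, with 47.5 and 46.7 CPM in ced-3 worms and 51.2 and 44.3 CPM in pmk-1 worms. The ces-1 level was low, 1.36 and 2.50 CPM in ced-3 worms and 0.203 and 0.353 CPM in pmk-1 worms (log2 fold 2.74 ± 0.52, adjusted p = 0.037). The engulfment receptor gene ced-1 was lower, with 78.2 and 69.1 CPM in ced-3 worms and 113 and 116 CPM in pmk-1 worms (log2 fold -0.64 ± 0.13, adjusted p = 0.0397), and WT worms had 70.9 and 81.5 CPM. The core death genes did not pass: ced-4 had 15.4 and 15.2 CPM in ced-3 worms and 14.5 and 13.9 CPM in pmk-1 worms, and ced-9 had 13.8 and 14.9 CPM in ced-3 worms and 14.7 and 18.0 CPM in pmk-1 worms. The death trigger gene egl-1 was near the detection limit, with 1.53 and 0.654 CPM in ced-3 worms and 0.405 and 0.235 CPM in pmk-1 worms (adjusted p = 0.116). The nuc-1 and ces-1 calls were lost without the second ced-3 library or without the first pmk-1 library. The ced-1 call was lost without either of these or without the second pmk-1 library. Calls were lost in other fits too: with the replicate number as a block, 1 member of the list was higher and 0 were lower.

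Infection response genes that are known to need PMK-1 were nearly all higher in ced-3 worms. Of 16 tested (18 listed), 15 were higher, 0 were lower, and the median log2 fold was 3.82. The gene C17H12.8, which encodes a secreted protein with a CUB-like domain, had 37.4 and 33.6 CPM in ced-3 worms, 0.675 and 0.942 CPM in pmk-1 worms, and 51.99 and 76.3 CPM in WT worms (log2 fold 5.43 ± 0.29, adjusted p = 0.00875). Its neighbour in kind dod-24 had 21.2 and 16.3 CPM in ced-3 worms, 0.338 and 0.353 CPM in pmk-1 worms, and 8.68 and 12.4 CPM in WT worms (5.73 ± 0.34, adjusted p = 0.00875). Both calls also held without either WT library, with adjusted p of 0.033 to 0.0497. The CUB-like gene irg-5 had 13.4 and 14.7 CPM in ced-3 worms, 1.28 and 0.706 CPM in pmk-1 worms, and 22.5 and 22.2 CPM in WT worms (3.83 ± 0.27, adjusted p = 0.0096). A further member of that family, K08D8.4, had 7.43 and 6.96 CPM in ced-3 worms, 0.743 and 0.706 CPM in pmk-1 worms, and 10.7 and 10.3 CPM in WT worms (3.30 ± 0.21). In each of these genes the ced-3 libraries were several times above the pmk-1 libraries, and only dod-24 stood above WT in both ced-3 libraries.

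The list spans a wide range of levels. As members named after their values were seen show, lys-2, a lysozyme gene, had 120 and 67.5 CPM in ced-3 worms, 5.07 and 8.24 CPM in pmk-1 worms, and 315 and 243 CPM in WT worms. The gene irg-4 had 194 and 144 CPM in ced-3 worms, 17.3 and 8.83 CPM in pmk-1 worms, and 325 and 236 CPM in WT worms. The peptide gene T24B8.5, a widely used reporter of PMK-1 activity, had 2.77 and 1.84 CPM in ced-3 worms, 0.0675 and 0.118 CPM in pmk-1 worms, and 7.68 and 7.32 CPM in WT worms. The gene dod-22 had 2.301 and 1.37 CPM in ced-3 worms and 0 counts in both pmk-1 libraries. The member that did not pass, named for that reason, was C34H4.1, with 17.7 and 6.90 CPM in ced-3 worms, 16.14 and 40.6 CPM in pmk-1 worms, and 46.2 and 43.2 CPM in WT worms, and there the mutant libraries overlapped. Summed over the tested and untested members, the list came to 530 and 367 CPM in ced-3 worms, 54.4 and 74.3 CPM in pmk-1 worms, and 999 and 868 CPM in WT worms. The count of higher members was 14 without the second ced-3 library, 12 without the second pmk-1 library and 6 without the first pmk-1 library. The list holds genes known to depend on PMK-1.

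**Figure D2:**
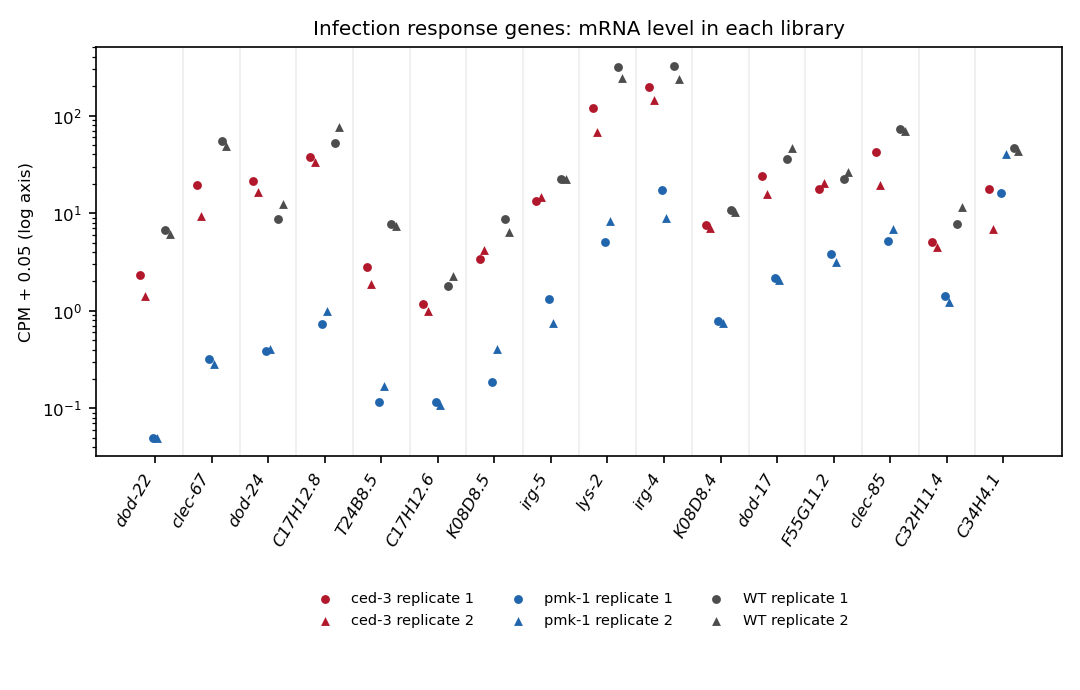
CPM plus 0.05 (log axis) of each tested infection response gene in each mRNA library, ordered by the log2 fold, with ced-3 in red, pmk-1 in blue and WT in grey, circles for replicate 1 and triangles for replicate 2. In 15 of the 16 genes both red points lie above both blue points, and C34H4.1 at the right is the exception.

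The other antimicrobial families were mixed. Of the lysozyme genes, whose enzymes cut bacterial cell walls, 13 of 16 were tested, 7 were higher, 0 were lower, and the median was 1.46. The gene lys-7 had 184 and 164 CPM in ced-3 worms, 13.9 and 19.5 CPM in pmk-1 worms, and 40.8 and 53.2 CPM in WT worms (log2 fold 3.37 ± 0.23, adjusted p = 0.00914). The gene lys-10 had 32.7 and 23.4 CPM in ced-3 worms, 0.878 and 1.35 CPM in pmk-1 worms, and 5.52 and 5.54 CPM in WT worms (4.63 ± 0.29). In these genes the ced-3 libraries lay above WT and the pmk-1 libraries below WT. The most abundant of the called ones, lys-1, had 461 and 370 CPM in ced-3 worms, 148 and 153 CPM in pmk-1 worms, and 622 and 630 CPM in WT worms (1.46 ± 0.14), so here both mutants were below WT. The gene lys-8 had 308 and 325 CPM in ced-3 worms and 114 and 119 CPM in pmk-1 worms (1.44 ± 0.14). A pair of abundant members, named after their values were seen, did not pass: lys-4 had 264 and 232 CPM in ced-3 worms and 271 and 244 CPM in pmk-1 worms, and ilys-5 had 589 and 426 CPM in ced-3 worms and 557 and 409 CPM in pmk-1 worms. The count of higher lysozyme genes was 2 without the first pmk-1 library.

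Among C-type lectins, secreted sugar-binding proteins of which many respond to bacteria, 98 of 265 were tested, 11 were higher, 2 were lower, and the median was 0.06. The gene clec-4 had 57.1 and 46.6 CPM in ced-3 worms, 6.62 and 11.01 CPM in pmk-1 worms, and 113 and 101 CPM in WT worms (log2 fold 2.55 ± 0.26, adjusted p = 0.0187). The gene clec-67, also on the infection list, had 19.3 and 9.34 CPM in ced-3 worms, 0.270 and 0.235 CPM in pmk-1 worms, and 55.1 and 48.5 CPM in WT worms (5.79 ± 0.53). The lectin genes clec-62 and clec-66 had folds of 1.41 ± 0.15 and 1.75 ± 0.20. For these 4 lectin genes both ced-3 libraries were above both pmk-1 libraries and below both WT libraries. Of the saposin-like genes, pore-forming proteins of the gut, 21 of 30 were tested, 6 were higher and 1 was lower, with a median of 0.24; spp-2 had 60.5 and 48.5 CPM in ced-3 worms and 24.7 and 22.3 CPM in pmk-1 worms, and spp-17 was lower with 56.1 and 49.7 CPM in ced-3 worms and 111 and 90.9 CPM in pmk-1 worms. With the first pmk-1 library left out, 1 lectin gene and 0 saposin-like genes were higher.

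Caenacins and the related neuropeptide-like peptides are antimicrobial peptides made mostly in the epidermis. Of 15 tested (22 listed), 4 were higher, 0 were lower, and the median was 1.00. The gene nlp-33 had 205 and 194 CPM in ced-3 worms, 16.482 and 45.03 CPM in pmk-1 worms, and 142 and 127 CPM in WT worms (log2 fold 2.69 ± 0.46, adjusted p = 0.0357). The gene nlp-30 had 12.7 and 25.04 CPM in ced-3 worms, 2.23 and 1.24 CPM in pmk-1 worms, and 5.27 and 4.71 CPM in WT worms (3.45 ± 0.45). The caenacin gene cnc-4 had 87 and 171 counts in ced-3 worms and 1 and 0 counts in pmk-1 worms, so its level in pmk-1 worms was at the detection limit. Of the fungal-induced peptides 16 were tested and 1 was higher, fip-6, with a list median of 0.19, and 9 of them differed more than 2-fold between the pmk-1 replicates. Of the F-box proteins of the A class, many of them of unknown substrate, 102 were tested, 4 were higher and 2 lower, with a median of -0.00, a share of 5.88% that lay under the background of 9.21%. When the first pmk-1 library was left out, 2 caenacin and neuropeptide-like genes and 0 F-box genes were higher.

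Cuticle collagens gave the largest block of genes higher in ced-3 worms. Of the col family, 87 of 159 were tested, 23 were higher, 2 were lower, and the median log2 fold was 1.47. Of the collagens named for their body shape mutants, 17 of 21 were tested, 9 were higher, 0 were lower, and the median was 3.31. The collagen gene sqt-1 had 308 and 581 CPM in ced-3 worms, 30.7 and 36.3 CPM in pmk-1 worms, and 35.2 and 25.09 CPM in WT worms (log2 fold 3.73 ± 0.37, adjusted p = 0.019). The gene sqt-3 had 265 and 570 CPM in ced-3 worms, 33.03 and 33.9 CPM in pmk-1 worms, and 30.3 and 24.6 CPM in WT worms (3.64 ± 0.40). The gene lon-3 had 41.8 and 76.9 CPM in ced-3 worms, 4.66 and 5.77 CPM in pmk-1 worms, and 5.64 and 3.82 CPM in WT worms (3.50 ± 0.38). In all 3 genes the pmk-1 libraries stood close to the WT ones, and the second ced-3 library had about 2-fold the level of the first. The most abundant called member, dpy-5, was named after its values were seen, and had 1036 and 2610 CPM in ced-3 worms, 44.1 and 153 CPM in pmk-1 worms, and 165 and 110 CPM in WT worms.

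The collagens of the annular furrows did not pass the test. The furrow genes dpy-2, dpy-3, dpy-7, dpy-9 and dpy-10 had log2 folds of -0.71, -0.62, -1.22, -1.51 and -1.19, and dpy-8 had 1.06, and 0 of the 6 passed; they were named after their values were seen. In the col family 2 genes were lower. The gene col-149 had 25.3 and 25.21 CPM in ced-3 worms, 461 and 97.3 CPM in pmk-1 worms, and 21.7 and 25.7 CPM in WT worms (-3.47 ± 0.73, adjusted p = 0.0485). The gene col-176 had 4.42 and 2.38 CPM in ced-3 worms and 29.05 and 13.5 CPM in pmk-1 worms (-2.64 ± 0.54). In both, the pmk-1 libraries were above the ced-3 and the WT ones. Without the first pmk-1 library 0 col genes and 1 named collagen were higher, without the second ced-3 library 4 and 6, and without both 40 and 12. Leaving out the second pmk-1 library instead, 49 col genes and 10 named collagens were higher, while 4 col genes and 5 named collagens were lower. Collagen genes are alike in sequence, so reads that fit several of them are uncertain for the single gene.

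Cuticle enzymes and partners included further genes that were higher. Of 27 tested astacin metalloproteases, secreted proteases of which several act on the cuticle, 11 were higher and 0 lower, with a median of 2.79; they had the highest share called, 40.7%, of the gene classes with at least 20 tested members. The next classes were the patched-related ptr genes with 36.4%, the pqn genes with 29.2%, the col genes with 28.7%, the acyltransferase-like oac genes with 27.3% and the dpy genes with 25%. The astacin gene nas-14 had 13.9 and 34.6 CPM in ced-3 worms, 0.608 and 1.24 CPM in pmk-1 worms, and 2.11 and 1.53 CPM in WT worms (log2 fold 4.68 ± 0.61, adjusted p = 0.0272). Of the collagen processing genes 15 were tested, 5 were higher and 0 lower, with a median of 0.61, among them the protease inhibitor gene bli-5 with 4.01 and 9.63 CPM in ced-3 worms and 0.270 and 0.530 CPM in pmk-1 worms. Of the cuticlins, insoluble cuticle proteins, 28 were tested, 7 were higher and 1 was lower, with a median of 1.26, and cutl-24 had 26.8 and 30.3 CPM in ced-3 worms against 8.92 and 11.8 CPM in pmk-1 worms. Of the abu and pqn genes, rich in glutamine and asparagine and in part found in the pharyngeal cuticle, 58 were tested, 21 were higher and 0 lower, with a median of 0.44. The gene abu-13 had 30.8 and 61.1 CPM in ced-3 worms, 2.77 and 3.77 CPM in pmk-1 worms, and 4.40 and 3.31 CPM in WT worms (3.81 ± 0.41). In these 4 lists 0 members were higher without the first pmk-1 library.

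The hedgehog-related genes encode secreted proteins of the worm that stand in for a true Hedgehog, and many are made by the epidermis in step with the moults. Of 39 tested (61 listed), 19 were higher, 0 were lower, and the median was 2.80. The warthog gene wrt-1 had 41.8 and 72.2 CPM in ced-3 worms, 6.21 and 6.53 CPM in pmk-1 worms, and 4.28 and 3.44 CPM in WT worms (log2 fold 3.16 ± 0.30, adjusted p = 0.0184). The ground-like gene grl-15 had 20.8 and 32.9 CPM in ced-3 worms, 0.878 and 1.65 CPM in pmk-1 worms, and 2.54 and 1.59 CPM in WT worms (4.39 ± 0.42). The warthog genes wrt-2 and wrt-4 had folds of 2.79 ± 0.29 and 3.85 ± 0.42. Of the patched-related genes, which encode membrane proteins like the Hedgehog receptor, 25 were tested, 8 were higher and 1 was lower, with a median of 0.54. The gene ptr-23 had 298 and 640 CPM in ced-3 worms, 66.5 and 101 CPM in pmk-1 worms, and 146 and 115 CPM in WT worms (2.48 ± 0.43). The member F43D9.1 was lower, with 16.9 and 15.3 CPM in ced-3 worms and 72.3 and 45.7 CPM in pmk-1 worms (-1.87 ± 0.24). In the 5 higher genes named here both ced-3 libraries stood above both WT libraries, and the second ced-3 library above the first. Without the first pmk-1 library 0 members of either list were higher, and without the second ced-3 library 7 hedgehog-related and 3 patched-related genes were.

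**Figure D3:**
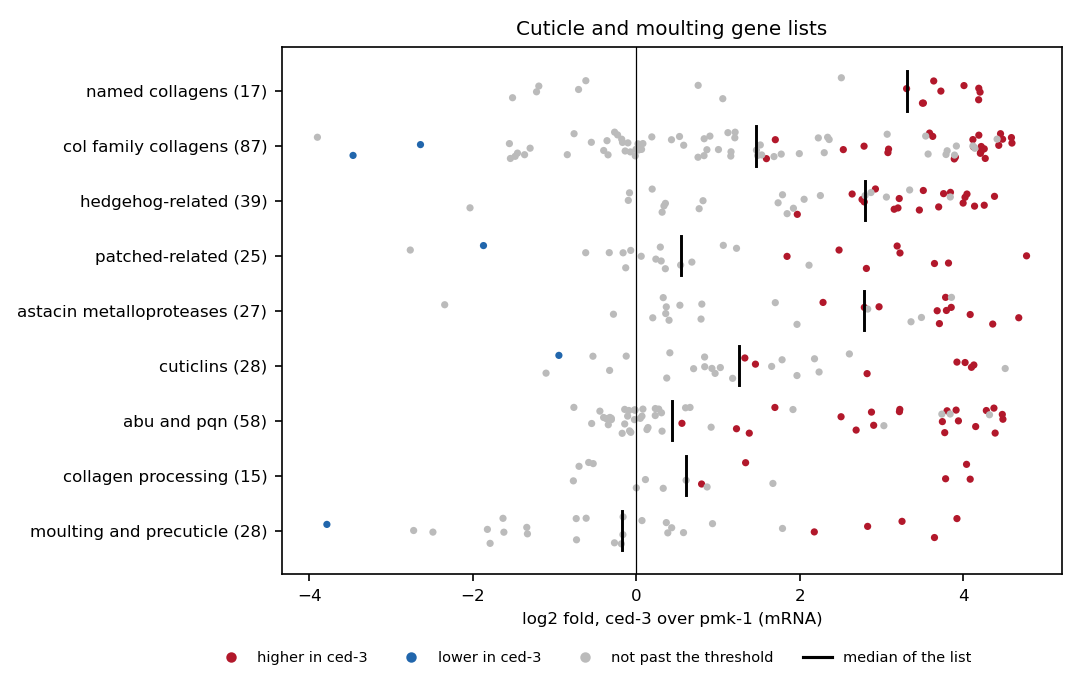
Log2 fold of ced-3 over pmk-1 (horizontal) for each tested gene of 9 cuticle and moulting lists, with the number tested in brackets, red for genes higher in ced-3, blue for lower, grey for not past the threshold, and a black bar at each list's median. Medians run from -0.17 in the moulting and precuticle list to 3.31 in the named collagens, where the genes fall into a group near 4 and a group near -1.

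Moulting and precuticle genes, in contrast with the collagens, had a median of -0.17. All 28 were tested, 5 were higher and 1 was lower. The higher ones were mlt-10, ptr-18, cut-6, osm-8 and mlt-9, the last of them named after its values were seen. The gene mlt-10, needed to shed the old cuticle, had 28.3 and 48.9 CPM in ced-3 worms, 5.34 and 5.47 CPM in pmk-1 worms, and 3.90 and 4.84 CPM in WT worms (log2 fold 2.83 ± 0.30, adjusted p = 0.0187). The lower one was fbn-1, a fibrillin-like protein of the epidermal surface, with 63.8 and 56.3 CPM in ced-3 worms, 1321 and 336 CPM in pmk-1 worms, and 92.3 and 133 CPM in WT worms (-3.79 ± 0.68, adjusted p = 0.0379). It had the largest fall by the naming rule, and its pmk-1 replicates were themselves about 4-fold apart. The precuticle genes sym-1, let-653 and noah-2, named after their values were seen, had folds of -2.72, -2.49 and -1.63 and did not pass. The list summed to 1624 and 2698 CPM in ced-3 worms, 6368 and 1880 CPM in pmk-1 worms, and 843 and 955 CPM in WT worms, and 18 of its 28 genes differed more than 2-fold between the pmk-1 replicates. Without the second pmk-1 library 3 members were higher and 10 lower; without the first, 0 were higher and 1 was lower.

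Genes of developmental timing counted 24 tested, 1 higher, 1 lower and a median of -0.15. The nuclear receptor gene nhr-23, which drives each moult, had 14.6 and 8.21 CPM in ced-3 worms, 71.5 and 32.7 CPM in pmk-1 worms, and 27.8 and 27.8 CPM in WT worms (log2 fold -2.19 ± 0.45, adjusted p = 0.0458). The kinase gene kin-20, the counterpart of the clock kinase Doubletime of flies, had 108 and 187 CPM in ced-3 worms, 64.1 and 56.3 CPM in pmk-1 worms, and 77.1 and 62.5 CPM in WT worms (1.29 ± 0.28, adjusted p = 0.0492). In nhr-23 the ced-3 libraries were below and the pmk-1 libraries above WT. Both calls were lost without the first pmk-1 library, when 0 members of the list passed.

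Among the genes called higher, the second library of each mutant was mostly above the first. Of the 909 higher genes, the second ced-3 library was above the first in 727 (79.98%), and the second pmk-1 library above the first in 684 (75.2%), against 49.7% and 50.3% of all tested genes. Of the 338 lower genes, the first ced-3 library was above the second in 272 (80.5%), against 50.3% of all tested genes. For pmk-1 the first library was above the second in 266 of them (78.7%), against 49.7%. With 3 counts added to each library, 273 of the 909 (30.03%) differed more than 2-fold between the ced-3 replicates, against 1087 of all 13536 tested genes (8.03%); the count of 1135 given at the start used a prior count of 2. The genes whose replicates differed most were in ced-3 col-142, with 60.6 and 8.15 CPM, and col-42, nlp-26, K12C11.1, Y105C5A.8 and F59C6.16. In pmk-1 they were W08E12.3, nspb-12, col-161 with 11.42 and 109 CPM, C42D4.3, grl-21 with 26.7 and 259 CPM, and Y47H10A.5. Larval age was not measured in the mutants, and the part of a difference in age in the cuticle and moulting results was not tested.

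Fatty acid synthesis was the clearest group on the lower side. Of 22 tested desaturases, elongases and related enzymes (24 listed), 0 were higher, 11 were lower, and the median was -0.83. The gene fasn-1, which encodes fatty acid synthase, had 1052 and 891 CPM in ced-3 worms, 4727 and 2596 CPM in pmk-1 worms, and 1740 and 2095 CPM in WT worms (log2 fold -1.91 ± 0.31, adjusted p = 0.0316). The elongase gene elo-6, which with elo-5 makes branched-chain fatty acids, had 263 and 248 CPM in ced-3 worms, 627 and 615 CPM in pmk-1 worms, and 493 and 547 CPM in WT worms (-1.28 ± 0.11, adjusted p = 0.0179). The gene elo-5 had 206 and 150 CPM in ced-3 worms, 405 and 447 CPM in pmk-1 worms, and 360 and 378 CPM in WT worms (-1.26 ± 0.18). In these 3 genes both ced-3 libraries were below both WT libraries, and both pmk-1 libraries were above them.

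The gene fat-7, a stearoyl-CoA desaturase, had 15.3 and 4.82 CPM in ced-3 worms, 74.4 and 57.9 CPM in pmk-1 worms, and 9.36 and 9.997 CPM in WT worms (-2.72 ± 0.52, adjusted p = 0.041), so here it was the pmk-1 libraries that stood apart from WT. The gene let-767, whose product takes part in making long and branched fatty acids, had a fold of -0.89 ± 0.16, and elo-2, which lengthens palmitate, had -1.31 ± 0.23. Further lower members, named after their values were seen, were pod-2, the acetyl-CoA carboxylase, with 1167 and 779 CPM in ced-3 worms and 2115 and 2082 CPM in pmk-1 worms, and the desaturase genes fat-1 and fat-4 with folds of -0.78 and -0.96. The list summed to 5910 and 4442 CPM in ced-3 worms, 12272 and 10384 CPM in pmk-1 worms, and 8467 and 9565 CPM in WT worms. Without the second ced-3 library 5 members were lower, without the second pmk-1 library 5, and without the first pmk-1 library 0.

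Of the genes of fat breakdown and of sugar use, 13.6% and 9.52% passed the test, against 9.21% of all tested genes. Of 22 tested beta oxidation genes 1 was higher and 2 were lower, with a median of -0.07. The carnitine transferase gene cpt-1, which brings fatty acids into mitochondria, had 201 and 220 CPM in ced-3 worms, 92.3 and 105 CPM in pmk-1 worms, and 120 and 130 CPM in WT worms (log2 fold 1.098 ± 0.12, adjusted p = 0.019). The dehydrogenase genes hacd-1 and acdh-3 were lower with folds of -1.28 ± 0.17 and -0.55 ± 0.10. Of 21 glycolysis genes 1 was higher, the hexokinase gene hxk-1 (1.05 ± 0.12), and 1 was lower, gpi-1 (-0.51 ± 0.11), with a median of -0.32. Both ced-3 libraries were below both pmk-1 libraries for 17 of these 21 genes, against 28.8% of all tested genes. DESeq2 called 6 glycolysis genes lower, and without the first ced-3 library 10 were lower. Targets of DAF-16, the FOXO factor of insulin signalling, counted 21 tested, 8 higher and 1 lower, the lower one fat-7, and a median of 0.48. The gene icl-1, the enzyme of the glyoxylate shunt, had 393 and 435 CPM in ced-3 worms, 175 and 159 CPM in pmk-1 worms, and 211 and 176 CPM in WT worms (1.31 ± 0.14, adjusted p = 0.0187). The gene dod-3 had 3.89 and 3.92 CPM in ced-3 worms, 0.405 and 0.471 CPM in pmk-1 worms, and 0.496 and 0.255 CPM in WT worms (3.13 ± 0.36). The lysozyme genes lys-7 and lys-8, described above, are on this list too. Leaving out the first pmk-1 library, 1 DAF-16 target was higher and 0 genes of beta oxidation or glycolysis passed.

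Genes of protein synthesis leaned to the lower side by small amounts. Of 32 aminoacyl-tRNA synthetase genes, whose products load tRNAs, 0 were higher and 8 were lower, with a median of -0.37. The gene iars-1 had 441 and 411 CPM in ced-3 worms, 669 and 660 CPM in pmk-1 worms, and 631 and 650 CPM in WT worms (log2 fold -0.64 ± 0.11, adjusted p = 0.0314). The gene nars-1 had 179 and 173 CPM in ced-3 worms, 269 and 282 CPM in pmk-1 worms, and 282 and 293 CPM in WT worms (-0.65 ± 0.11). In both, the pmk-1 libraries were within or near the WT range. Of 40 translation factors 4 were lower with a median of -0.34, among them eif-3.C, with 558 and 573 CPM in ced-3 worms and 881 and 824 CPM in pmk-1 worms (-0.59 ± 0.11). Of 25 ribosome biogenesis genes 4 were lower with a median of -0.44, among them fib-1, the fibrillarin of the nucleolus, with 438 and 384 CPM in ced-3 worms and 630 and 579 CPM in pmk-1 worms (-0.56 ± 0.12). In these 3 lists 0 genes were higher, and both ced-3 libraries were below both pmk-1 libraries for 31 of 32, 38 of 40 and 24 of 25 genes, against 28.8% of all tested genes.

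Of 80 cytosolic ribosomal protein genes 0 passed in either direction and the median was -0.20. For 39 of the 80, both ced-3 libraries were below both pmk-1 libraries, against 28.8% of all tested genes. Of 33 proteasome genes 0 passed and the median was 0.02. Without the first pmk-1 library, and likewise without the second ced-3 library, 0 synthetase, translation factor or biogenesis genes were lower, while DESeq2 called 14, 16 and 13 of them lower.

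More chaperone genes were lower than higher. The mitochondrial unfolded protein response list had 18 tested genes, 1 higher and 5 lower, with a median of -0.50. The chaperone gene hsp-60 had 1046 and 934 CPM in ced-3 worms, 1861 and 1521 CPM in pmk-1 worms, and 1505 and 1515 CPM in WT worms (log2 fold -0.77 ± 0.14, adjusted p = 0.0351). The protease gene spg-7 and the import gene timm-17B.1 had folds of -0.66 ± 0.13 and -0.78 ± 0.16, and hsp-6 and phb-2, named after their values were seen, had -0.89 and -0.70. The higher member was dve-1, a homeodomain factor that acts in this response, with 27.8 and 41.3 CPM in ced-3 worms and 16.01 and 14.4 CPM in pmk-1 worms (1.19 ± 0.21). Of 19 cytosolic heat shock genes 0 were higher and 3 were lower, with a median of -0.28; hsp-90 had 2874 and 2836 CPM in ced-3 worms, 4255 and 4461 CPM in pmk-1 worms, and 3670 and 3871 CPM in WT worms (-0.61 ± 0.11). The other lower ones were hsp-1 (-0.69 ± 0.16) and hsp-110 (-0.70 ± 0.12). Of 19 chaperones and sensors of the endoplasmic reticulum hsp-4 was higher (0.56 ± 0.11) and atf-6 lower (-0.79 ± 0.16), with a median of -0.17. The 8 subunits of the CCT chaperonin had a median of -0.36 and 0 passed, 34 nuclear encoded genes of the respiratory chain a median of -0.21 with only cox-15 lower (-0.57 ± 0.11), and the 12 mitochondrially encoded genes a median of -0.28 with 0 passing. Both ced-3 libraries were below both pmk-1 libraries for all 8 CCT genes, against 28.8% of all tested genes. This held for 25 of the 34 nuclear encoded respiratory genes and for 9 of the 12 mitochondrially encoded ones. The medians of abundant genes in general, given above for the ribosomal protein genes, were also below 0. In the chaperone lists 0 members passed without the first pmk-1 library.

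**Figure D4:**
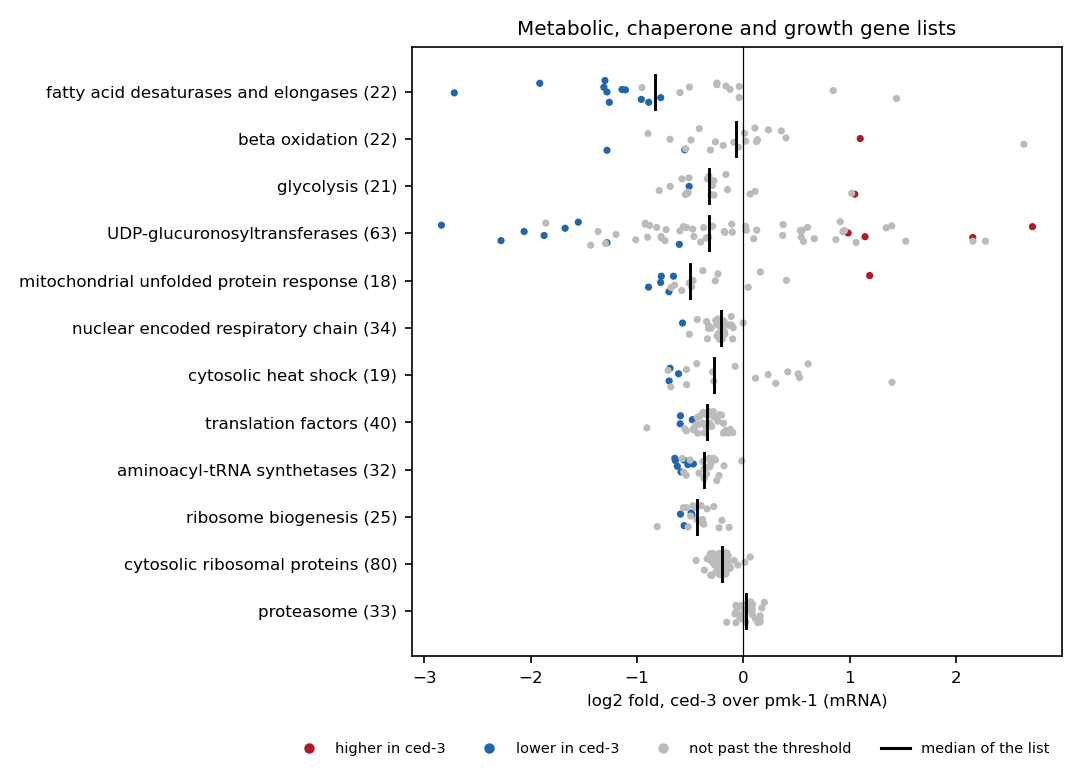
Log2 fold of ced-3 over pmk-1 (horizontal) for each tested gene of 12 metabolic, chaperone and growth lists, with the number tested in brackets, red for genes higher in ced-3, blue for lower, grey for not past the threshold, and a black bar at each list's median. The desaturase and elongase median is at -0.83, the medians of the translation lists are between -0.20 and -0.44 with little spread, and the proteasome median is at 0.02.

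Among enzymes and pumps that handle foreign compounds, 19.0% of the UDP-glucuronosyltransferase genes were called, in both directions, against 9.21% of all tested genes. The shares for P-glycoproteins, cytochromes P450 and glutathione S-transferases were 6.67%, 3.03% and 2.56%, under that background. Of 63 UDP-glucuronosyltransferase genes 4 were higher and 8 lower, with a median of -0.33. The gene ugt-57 had 9.44 and 6.48 CPM in ced-3 worms, 80.8 and 33.3 CPM in pmk-1 worms, and 13.5 and 15.9 CPM in WT worms (log2 fold -2.84 ± 0.47, adjusted p = 0.0337). The gene ugt-44 was higher, with 41.0 and 51.7 CPM in ced-3 worms, 4.05 and 9.95 CPM in pmk-1 worms, and 73.1 and 66.5 CPM in WT worms (2.72 ± 0.41). Of 15 P-glycoprotein genes pgp-6 was lower and 0 were higher, with a median of -0.03. It had 12.03 and 10.6 CPM in ced-3 worms, 38.3 and 72.3 CPM in pmk-1 worms, and 390 and 387 CPM in WT worms (-2.29 ± 0.31, adjusted p = 0.0287), so both mutants were far below WT, and ced-3 further; the call was lost without the second ced-3 library. Of 66 cytochrome P450 genes 1 was higher, cyp-37B1, and 1 lower, cyp-25A2, with a median of -0.01. Of 39 glutathione S-transferase genes gst-13 was higher (1.46 ± 0.17), with a median of -0.30, and of 14 antioxidant enzyme genes sod-4 was higher (0.85 ± 0.15), with a median of -0.09. Of 207 nuclear hormone receptors 7 were higher and 2 lower with a median of 0.11, a share of 4.35%. Of 21 gut proteases 3 were higher and 2 lower with a median of -0.05; cpr-2, a cathepsin B relative, had 4.13 and 4.28 CPM in ced-3 worms and 0.540 and 0.530 CPM in pmk-1 worms. The ugt-57 and ugt-44 calls were among those that changed with the libraries: without the first pmk-1 library 1 member of that list was higher and 0 were lower.

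Signalling peptide genes had shares called near the background of 9.21%, namely 11.9% for neuropeptides and 8.70% for insulin-like peptides. Of 101 neuropeptide genes 10 were higher and 2 lower, with a median of 0.37. Both ced-3 libraries were above both pmk-1 libraries for 66 of the 101 and below them for 6. Over all tested genes these shares were 30.4% and 28.8%. The gene flp-27 had 12.801 and 11.06 CPM in ced-3 worms, 4.19 and 4.24 CPM in pmk-1 worms, and 14.1 and 15.9 CPM in WT worms (log2 fold 1.5 ± 0.17, adjusted p = 0.019). Among the 10 were nlp-30, nlp-31 and nlp-33, which are also on the antimicrobial peptide list. Of 23 tested insulin-like peptide genes 0 were higher and 2 were lower, with a median of 0.20. The gene ins-33 had 8.61 and 5.77 CPM in ced-3 worms, 48.8 and 32.9 CPM in pmk-1 worms, and 19.8 and 19.2 CPM in WT worms (-2.50 ± 0.27, adjusted p = 0.019). The gene ins-4 had 0.708 and 0.416 CPM in ced-3 worms, 15.3 and 3.94 CPM in pmk-1 worms, and 0.620 and 1.02 CPM in WT worms (-4.07 ± 0.81, adjusted p = 0.0426). In ins-33 the ced-3 libraries were below and the pmk-1 libraries above WT, and in ins-4 the pmk-1 libraries alone stood apart. Without the first pmk-1 library 2 neuropeptide genes were higher and 1 insulin-like gene was lower.

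Of 44 genes of DNA replication and cell division 5 were higher and 0 lower, with a median of 0.36. Both ced-3 libraries were above both pmk-1 libraries for 28 of the 44 and below them for 4. Over all tested genes these shares were 30.4% and 28.8%. The gene rnr-1, a subunit of ribonucleotide reductase, had 118 and 155 CPM in ced-3 worms, 66.4 and 80.4 CPM in pmk-1 worms, and 93.5 and 81.4 CPM in WT worms (log2 fold 0.89 ± 0.18, adjusted p = 0.0413). The helicase gene mcm-2 had 86.1 and 97.5 CPM in ced-3 worms and 49.04 and 59.5 CPM in pmk-1 worms (0.76 ± 0.14), and the mitotic genes cyb-3 and plk-1 each had a fold of 0.53. Without the second ced-3 library or the first pmk-1 library 0 of these passed.

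Tissue marker lists ranged from 0% called to 33.3% in the short pharynx muscle list, against 9.21% of all tested genes. Of 13 neuron markers 0 passed (median 0.11), of 15 germline markers 0 passed (median -0.03) and of 10 body wall muscle markers 0 passed (median -0.29). Of the body wall muscle markers, 8 of 10 had both ced-3 libraries below both pmk-1 libraries, against 28.8% of all tested genes. Body wall muscle markers summed to 17784 and 19512 CPM in ced-3 worms and 24029.9 and 21362 CPM in pmk-1 worms, and germline markers to 377 and 344 CPM in ced-3 worms and 413 and 353 CPM in pmk-1 worms. Of 13 intestine markers ges-1 was higher (log2 fold 0.52 ± 0.12) and elo-2 and ifb-2 were lower, with a median of -0.16, and the list summed to 5894 and 4843 CPM in ced-3 worms and 6588 and 6145 CPM in pmk-1 worms. Both pharyngeal myosin genes were lower: myo-2 had 634 and 660 CPM in ced-3 worms, 1247 and 1038 CPM in pmk-1 worms, and 832 and 749 CPM in WT worms (-0.82 ± 0.14, adjusted p = 0.0314), and myo-1 had a fold of -0.84 ± 0.15, in a list of 6 with a median of -0.38. Both myosin calls were lost without the second ced-3 library or without the first pmk-1 library. Of 8 tested epidermis and seam markers 1 was lower, nhr-74, with a median of -0.56, and the list summed to 334 and 296 CPM in ced-3 worms and 631 and 345 CPM in pmk-1 worms. Sperm protein genes came to at most 0.191 CPM in any library and 0 of 35 were tested, and of 6 yolk genes only vit-1 was tested (0.76 ± 0.82), so markers of adult sperm and yolk were at or near 0 in every group. The markers' part in the gene group results was not tested.

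Several of the most changed genes belong to no list. The largest rise by the naming rule was that of catp-3, a cation-transporting ATPase gene on chromosome V, 8076012 to 8079916 (WBcel235). It had 175 and 180 CPM in ced-3 worms, 0.0675 and 1.71 CPM (1 and 29 counts) in pmk-1 worms, and 258 and 268 CPM in WT worms (log2 fold 7.58 ± 0.79, adjusted p = 0.019). In RPF it had 250 and 262 CPM in ced-3 worms and 0.108 and 22.7 CPM in pmk-1 worms, so the second pmk-1 sample was above the first in both assays. The genes W08E12.2 and W08E12.3 on chromosome IV had 44.8 and 127 CPM and 44.5 and 119 CPM in ced-3 worms, 0.608 and 2.59 CPM and 0.203 and 4.53 CPM in pmk-1 worms, and below 10 CPM in WT worms. They lie side by side without overlapping, and whether some reads fit both was not tested. The gene ora-1 had 44.2 and 133 CPM in ced-3 worms, 1.55 and 4.002 CPM in pmk-1 worms, and 9.36 and 5.41 CPM in WT worms (4.97 ± 0.76). The genes B0280.7, E01G6.1, K09C8.9, F20B10.3 and F40E10.5 had folds of 4.63 to 4.84, and F13B12.4 and col-173 had 4.598 and 4.59. In all of these except catp-3 the second ced-3 library was more than 2-fold above the first.

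On the lower side the rule gave, beside fbn-1, col-149, col-176, ugt-57, fat-7 and ins-33, the mucin-like cuticle gene dpy-6, with 52.1 and 15.5 CPM in ced-3 worms, 449 and 210 CPM in pmk-1 worms, and 90.7 and 132 CPM in WT worms (log2 fold -3.29 ± 0.69, adjusted p = 0.0482). The gene Y48E1B.8 had 19.2 and 9.81 CPM in ced-3 worms, 176 and 111 CPM in pmk-1 worms, and 73.2 and 73.4 CPM in WT worms (-3.31 ± 0.39). The gene C09F9.2 had 90.9 and 89.5 CPM in ced-3 worms, 906 and 305 CPM in pmk-1 worms, and 115 and 142 CPM in WT worms (-2.75 ± 0.52). The remaining ones, Y37D8A.3, F19H8.2, T14B4.5, Y11D7A.3, BE0003N10.3 and H41C03.1, had folds of -2.82 to -2.42. In Y48E1B.8 the ced-3 libraries were below WT and the pmk-1 libraries above, and in C09F9.2 the first pmk-1 library stood far above the rest. A steady difference, named after its values were seen, was that of C07A9.12 on chromosome III, with 0.295 and 0.178 CPM in ced-3 worms, 8.65 and 8.48 CPM in pmk-1 worms, and 9.67 and 9.04 CPM in WT worms (-5.13 ± 0.28, adjusted p = 0.00875).

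Most genes with reads at the left end of chromosome X had few or no counts in the pmk-1 libraries. It was found after the values were seen, and the window was set then, from the first base to position 250000 of WBcel235. Of 64 annotated genes in the window, 21 had at least 10 counts over the mRNA libraries, and 15 of these had 0 to 2 counts over both pmk-1 libraries, 9 of them 0. Those 15 genes lie from position 7582 to position 207723. Their counts summed to 249 and 233 in the ced-3 libraries, 5 and 3 in the pmk-1 libraries, and 188 and 230 in the WT libraries. The 15 genes were picked by their pmk-1 mRNA counts, so the low pmk-1 sums follow from the choice. In RPF they summed to 47 and 45 in ced-3 worms, 2 and 5 in pmk-1 worms, and 42 and 46 in WT worms. Of the 21 genes with at least 10 counts 12 were tested, of which 10 were higher in ced-3 worms and 0 lower, against 6.72% and 2.5% of all tested genes. Because the window was set after the low pmk-1 counts were seen, this share is a description and no test of the region.

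The gene Y73B3A.1 had 37 and 33 counts in ced-3 worms, 1 and 1 in pmk-1 worms, and 37 and 39 in WT worms. The gene T08D2.8 had 36 and 34 counts in ced-3 worms, 0 and 0 in pmk-1 worms, and 16 and 30 in WT worms. The noncoding gene Y73B3A.23 was the only one of the run among the largest rises by the naming rule. That rule left out genes that averaged under 10 CPM, such as T08D2.8 with a log2 fold of 8.08. Y73B3A.23 had 796 and 614 counts in ced-3 worms, 14 and 27 in pmk-1 worms, and 780 and 560 in WT worms (log2 fold 5.02 ± 0.31, adjusted p = 0.00875). It overlaps the pseudogene Y73B3A.18, which had 120 and 114 counts in ced-3 worms against 54 and 78 in pmk-1 worms, so reads of the pair are uncertain for either. Within the run, 6 genes had more than 2 counts over both pmk-1 libraries: Y35H6.3, Y73B3A.18, Y73B3A.23, Y73B3A.2, cal-6 and Y73B3A.9. The gene Y73B3A.2 had 2 and 2 counts in ced-3 worms, 4 and 3 in pmk-1 worms, and 2 and 4 in WT worms. The gene cal-6 had 1 and 2 counts in ced-3 worms, 2 and 2 in pmk-1 worms, and 4 and 3 in WT worms. In these 2 genes the pmk-1 libraries were not below the ced-3 ones, at counts too low to be tested. Whether the region differs in the genome of the pmk-1 strain was not tested.

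**Figure D5:**
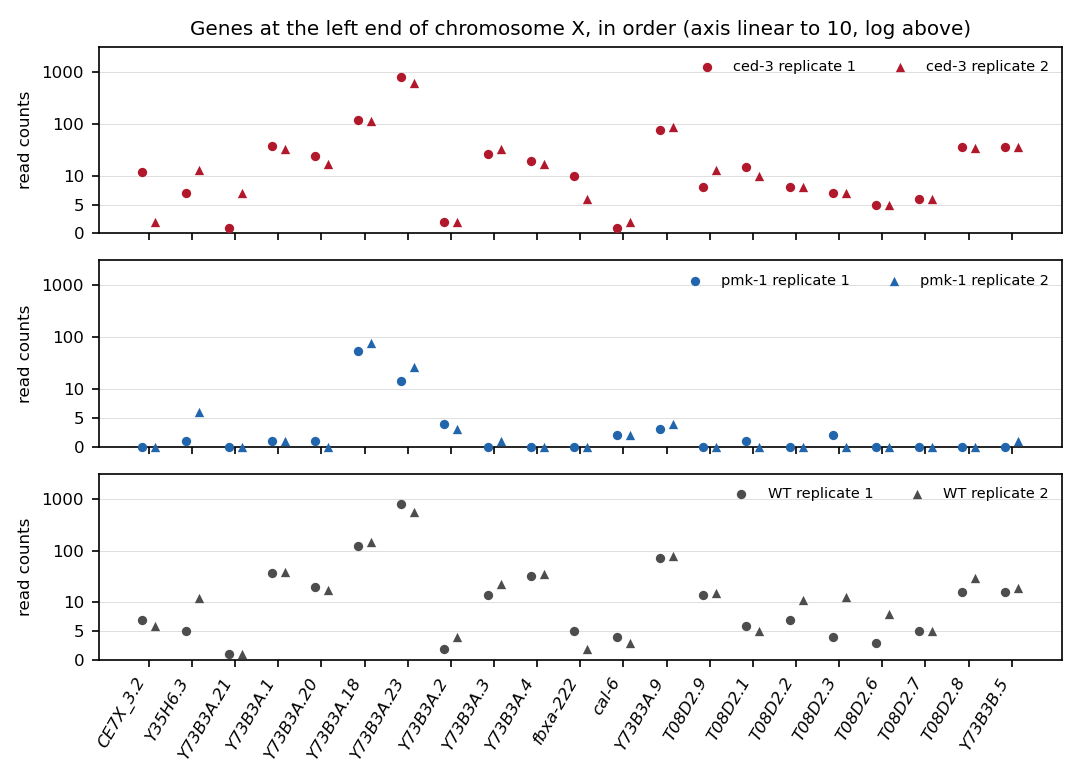
Read counts (vertical, linear up to 10 and log above) of the 21 genes with at least 10 mRNA counts at the left end of chromosome X, in chromosome order, in the ced-3 (top), pmk-1 (middle) and WT (bottom) mRNA libraries, with circles for replicate 1 and triangles for replicate 2. Apart from Y73B3A.18 with 54 and 78 counts and Y73B3A.23 with 14 and 27, the points of the middle panel sit at 6 counts or fewer.

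More genes were near absent in pmk-1 worms than in ced-3 worms. With 0 to 3 counts over both pmk-1 libraries and a mean of at least 1 CPM in ced-3 worms there were 44 genes, of which 38 were called. The reverse, 0 to 3 counts over both ced-3 libraries and a mean of at least 1 CPM in pmk-1 worms, held for 4 genes, T09B9.3, C18H7.6, C29F4.3 and K04D7.6, and all 4 were called. Both sets were picked by the same counts that the test used. A call was therefore likely from the choice alone and is no further support. The gene T09B9.3 (chromosome X) had 0 counts in both ced-3 libraries, where 3 counts would be 0.177 and 0.178 CPM, against 3.38 and 4.41 CPM in pmk-1 worms and 3.59 and 4.46 CPM in WT worms. The gene C18H7.6 (chromosome IV) had 0 counts in both ced-3 libraries, against 2.77 and 2.59 CPM in pmk-1 worms and 2.42 and 2.48 CPM in WT worms. Mean WT levels of the 44 genes ran from 0 CPM, as in F35A5.5, to 12.5 CPM in oac-6. Near absence in pmk-1 worms was therefore not always a fall from the WT level. Genes of the chromosome X run, such as Y73B3A.1 and T08D2.8, are among the 44. The 4 genes near absent in ced-3 worms, F35A5.5 and oac-6 were named after their values were seen.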

How the data were processed

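The deposited values were raw read counts, whole numbers for each gene and library. The submitters' processing notes name Bowtie2, STAR, HTSeq and the build WBcel235, without versions or roles; the annotation release, use of strand and treatment of reads with several matches are not given in the sources used here. Of 46778 genes, 46603 matched the WBcel235 annotation by WormBase identifier and 43818 a gene name. Symbols are those of the table.

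CPM were computed with TMM-scaled library sizes. The 6 mRNA libraries formed 1 fit in edgeR 4.0.16 (R 4.3.3, limma 3.58.1) with genotype as its only term: filterByExpr (at least 10 counts in enough libraries and 15 in all), robust glmQLFit, glmQLFTest of ced-3 minus pmk-1, Benjamini-Hochberg adjustment over all genes tested, threshold 0.05. The SE is the size of the log2 fold divided by the square root of F, and the biological coefficient of variation was 0.200. The procedure was tested on simulated counts, where the share of false calls was above the threshold. RPF libraries were used as levels, scaled the same way, without a test.

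The comparison, the 52 gene lists and the tests were chosen with earlier results of these data known. Named genes were the 15 largest rises and falls among called genes that averaged 10 CPM or more over the mutant libraries and did not overlap; ced-3, pmk-1 and members of the p38 and cell death lists; up to 4 called members per list by p, or the member with the smallest p; the 6 genes that differed most between replicates of each mutant; and the 6 classes with the highest share called. Others are said to be named after their values were seen. Lists are described by counts and medians without a test. Listed names without a match in the table are not used here. Alternatives were RLE factors, DESeq2 1.42.0, no filter on low counts, a replicate block, the 4 mutant libraries alone, no robust option, protein coding genes alone, and each library left out in turn.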

Additional observations from a re-analysis of the deposited data

How the results depend on the processing

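All values here are numbers of genes called for ced-3 against pmk-1 in mRNA, where 1247 were called, 909 higher and 338 lower. RLE factors gave 1239 and the fit without the robust option 1374. Protein coding genes alone gave 1330. DESeq2 called 2079 genes, 749 of them lower. With no filter on low counts 573 were lower. With the 4 mutant libraries alone 0 were called in total, 0 higher and 0 lower. Leaving out 1 library at a time gave 3 to 1821 genes called, 3 to 1068 higher and 0 to 753 lower. The lowest numbers came without either WT library, and the highest without the first ced-3 library. The share of calls that were higher was 72.9%, against 63.97% with DESeq2, 64.1% with no filter and 82.8% with the block. With the replicate number as a block 564 were called, 467 higher and 97 lower. The labels do not say that the replicate number pairs the samples. Over 7953 genes, deviations from the group means correlated at 0.13 for ced-3 with pmk-1. The values were -0.13 for ced-3 with WT and -0.23 for pmk-1 with WT. Such values cannot show whether the samples were paired. The median log2 fold of all genes was -0.01 with RLE factors and with DESeq2. No call changed sign under any alternative, and the lack of overlap between the mutant libraries in every called gene made a change hardly possible. Leaving out the second ced-3 and the first pmk-1 library together, which gave 1472 calls, 1073 of them higher, was added after the data were seen. The cause of these changes was not tested. With 2 libraries a group, depth limits genes near 0.2 CPM, and the spread between replicates limits the rest.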
